A study of Mus musculus with 6 samples.

Results

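The genes described here are 10 receptors and effectors of the bone morphogenetic protein (BMP) and transforming growth factor beta (TGF-beta) pathways, chosen by gene name from the 55401 genes of the deposited tables: Tgfbr2, Tgfbr1, Tgfbr3, Bmpr2, Bmpr1a, Acvrl1, Eng, Smad6, Smad7 and Id1. They were measured by bulk RNA sequencing in 6 libraries of sorted lymphatic endothelial cells (LECs) from the mouse dura mater, 3 from AAV-CTRL mice and 3 from AAV-VEGF-C mice, to ask how the growth factor VEGF-C alters the transcriptome of these cells. Per the study's methods, wild-type C57BL/6J males aged 4 wk received an adeno-associated virus of serotype 9 through the cisterna magna, which carried either full-length mouse VEGF-C or, in AAV-CTRL, a soluble VEGFR-3-Ig lacking the domains that bind VEGF-C. Both groups therefore received a virus and a secreted protein, and no uninjected group was analysed here. Each library pooled the meninges of 10 to 12 mice and cells sorted as LYVE-1+ Podoplanin+ CD31+ CD45-, and libraries with the same number came from the same repeat of the experiment.

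Ligands of the TGF-beta superfamily bind a complex of type II and type I receptor kinases, helped by co-receptors such as endoglin (Eng) and betaglycan (Tgfbr3). The type I receptor phosphorylates SMAD proteins, which enter the nucleus with SMAD4. BMP9 and BMP10 signal in endothelium through ALK1 (Acvrl1), BMPR2 and endoglin, a receptor set whose human mutations cause hereditary haemorrhagic telangiectasia or pulmonary arterial hypertension. Id1 is a direct BMP target, and Smad6 and Smad7 encode inhibitory SMADs that feed back on the receptors. In lymphatic endothelium, ALK1 and TGF-beta receptors are known for roles in vessel identity, sprouting and valve formation.

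The libraries differed in depth along with the group, from 6530269 to 12399498 counts in AAV-CTRL and from 564475 to 3261935 in AAV-VEGF-C. Families that endothelium does not normally express (1935 olfactory, vomeronasal, taste, keratin-associated and defensin genes) summed to 159 to 293 CPM, which divides each count by the total of its library, in AAV-CTRL and 2884 to 7053 in AAV-VEGF-C. All 8 markers of lymphatic endothelium exceeded 1 TPM, a transcript level scaled for gene length and library total, in every library, with sums of 461 to 574 TPM in AAV-CTRL and 149 to 336 in AAV-VEGF-C. Markers of other cells were also present. The 8 fibroblast markers summed to 1768 to 4183 TPM in AAV-CTRL and 398 to 1336 in AAV-VEGF-C, above the lymphatic markers in every library. Leukocyte markers were low in experiment 1 of both groups, at 20.04 and 14.5 TPM, and ranged from 462 to 1552 TPM in the other 4 libraries. The part of depth and of these other cells in the results that follow was not tested, and in pooled RNA fewer cells of a type and less RNA per cell cannot be told apart.

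RefSeq windows of the 250 bases before a transcript start were matched for 6 of the 10 genes, as 7 windows. The 3 shown start within 3 bases of a gene's annotated start in GRCm38 and belong to a co-receptor, a type II receptor and an inhibitory SMAD, so that the promoters of genes with different roles can be read side by side. They are written 5′ to 3′ on the gene's strand, and capitals mark CAGAC or its reverse complement GTCTG, the short box that SMAD proteins bind.
Eng, chr2:32646345-32646594, plus strand (GRCm38.p6): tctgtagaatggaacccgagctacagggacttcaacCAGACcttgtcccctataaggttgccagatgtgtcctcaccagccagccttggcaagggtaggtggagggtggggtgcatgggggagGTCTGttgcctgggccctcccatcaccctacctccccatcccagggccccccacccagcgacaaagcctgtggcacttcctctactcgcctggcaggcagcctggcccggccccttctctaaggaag
Tgfbr2, chr9:116175364-116175613, minus strand (GRCm38.p6): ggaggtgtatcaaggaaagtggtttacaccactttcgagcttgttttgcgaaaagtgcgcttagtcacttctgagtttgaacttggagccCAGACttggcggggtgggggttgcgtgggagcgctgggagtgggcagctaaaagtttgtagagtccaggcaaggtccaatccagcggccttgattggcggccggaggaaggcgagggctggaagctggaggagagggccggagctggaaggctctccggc
Smad6, chr9:64022060-64022309, minus strand (GRCm38.p6): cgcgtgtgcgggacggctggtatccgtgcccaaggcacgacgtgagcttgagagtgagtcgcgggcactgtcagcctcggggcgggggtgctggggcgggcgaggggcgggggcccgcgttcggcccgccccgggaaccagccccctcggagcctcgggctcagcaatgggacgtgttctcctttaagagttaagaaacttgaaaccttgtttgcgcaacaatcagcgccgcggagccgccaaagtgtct
The Eng window held 2 such boxes, 214 and 127 bases before the start, and the Tgfbr2 window held 1, 160 bases before it. Of the 7 windows, 3 held CAGAC on either strand, and 42.2% of all 32851 RefSeq windows of this length did. The palindrome GGCGCC, which shares no overlap with these boxes, was in 3 of the 7 windows and in 9.59% of all windows. A match of letters describes the window and is no evidence of binding.

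All 10 are protein-coding genes, and positions are given as whole gene spans in GRCm38. All 10 were detected in every library, and all passed the expression filter. TPM was lower in AAV-VEGF-C than in AAV-CTRL for 10 of 10 genes within each of the 3 experiments, with ratios from 0.0581 to 0.686. This depended on the unit. In CPM rescaled between libraries by TMM factors, Eng in experiment 1 was higher in AAV-VEGF-C (206) than in AAV-CTRL (135). For 8 of the 10, TPM in the 3 AAV-VEGF-C libraries lay below all 3 AAV-CTRL libraries. The same held for 36.4% of the 17459 genes tested and for 61.4% of the 7234 expressed genes, meaning those whose TPM averaged 5 or more. Lower TPM in AAV-VEGF-C was thus common to most expressed genes. The median of the 6886 of them listed above 0 in every library was 4.32-, 2.06- and 2.46-fold lower in experiments 1, 2 and 3, beside 4.71-, 2.51- and 3.17-fold for the median of the 10. Counts were then rescaled between libraries by TMM factors and tested by edgeR's quasi-likelihood test. Of the 10, 0 passed a Benjamini-Hochberg adjusted p of 0.05 in either direction, where 10.5% of all genes tested were called higher and 0.659% lower.

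**Figure D1:**
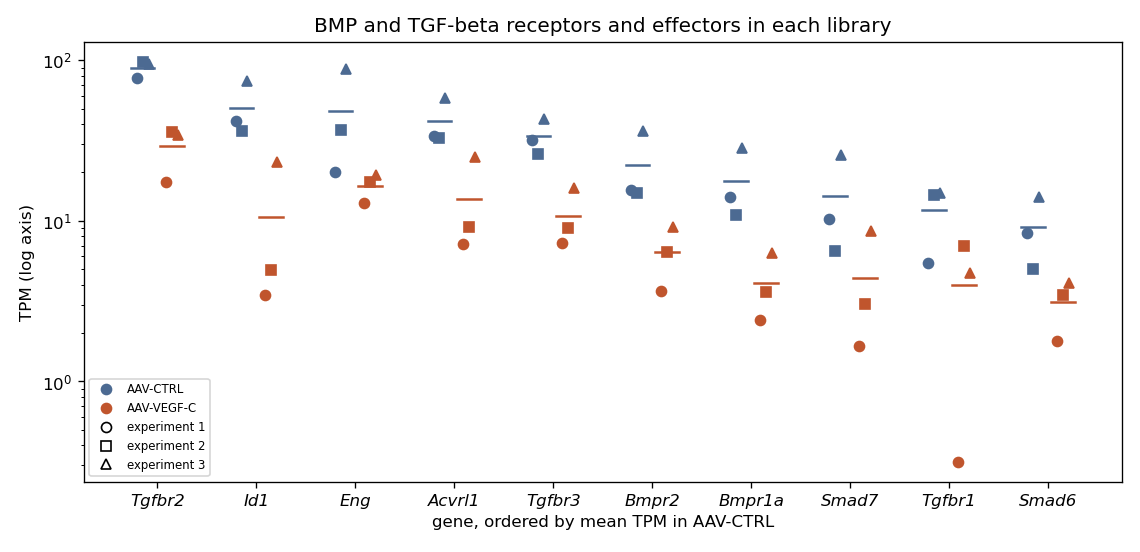
TPM (log axis) of the 10 genes in each library, with AAV-CTRL in blue, AAV-VEGF-C in orange, a shape for each experiment and a line at each group mean. In TPM, every gene was lower in AAV-VEGF-C within each experiment, and the groups overlapped for Tgfbr1 and Smad7.

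Of the TGF-beta receptors, Tgfbr2 (chr9:116084293-116175360, minus strand), the type II receptor that binds TGF-beta, was the most abundant of the 10 in every library. Its TPM was 77.5, 96.9 and 95.3 in AAV-CTRL against 17.6, 35.8 and 34.3 in AAV-VEGF-C, with means of 89.9 ± 10.7 and 29.2 ± 10.1 (SD, n = 3). The groups did not overlap in TPM, and the exact two-sided permutation p was 0.1, the smallest that 3 libraries against 3 allow. The edgeR log2 fold change was -0.46 (SE 0.32, adjusted p = 0.388), close to the median of -0.41 over expressed genes, and 0.0084 when libraries were scaled on the 2000 most abundant genes.

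Tgfbr1 (chr4:47353222-47414931, plus strand), the type I kinase that partners Tgfbr2, had 5.43, 14.6 and 14.97 TPM in AAV-CTRL against 0.315, 6.96 and 4.73 in AAV-VEGF-C. Library 1 was the lowest in both groups, and the value of 0.315 rested on 1 count. AAV-VEGF-C library 1 was the lowest of its group for all 10 genes, and AAV-CTRL library 1 for 3 of them. Leukocyte markers were near absent in both libraries. The groups overlapped, and the log2 fold change was -0.69 with an SE of 0.70 (edgeR adjusted p = 0.565), the widest error among the 10. Tgfbr3 (chr5:107106570-107289629, minus strand), betaglycan, had 31.8, 26.1 and 43.1 TPM in AAV-CTRL against 7.28, 9.02 and 16.0 in AAV-VEGF-C. Its groups did not overlap, and its log2 fold change was -0.91 (SE 0.31, edgeR adjusted p = 0.103).

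Among the BMP receptors, Bmpr2 and Bmpr1a had the smallest adjusted p-values of the 10. Bmpr2 (chr1:59763400-59879014, plus strand), the type II BMP receptor, had 15.7, 14.9 and 36.2 TPM in AAV-CTRL against 3.67, 6.41 and 9.16 in AAV-VEGF-C. The highest AAV-VEGF-C library was below the lowest AAV-CTRL library, and the log2 fold change was -1.17 (SE 0.34, edgeR adjusted p = 0.0704). Bmpr1a (chr14:34410734-34503341, minus strand), the type I receptor ALK3, had 14.2, 10.8 and 28.3 TPM against 2.43, 3.62 and 6.32. Its log2 fold change was -1.11 (SE 0.34, edgeR adjusted p = 0.0793).

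Acvrl1 (chr15:101128522-101145336, plus strand), the endothelial type I receptor ALK1, had 33.9, 32.8 and 58.1 TPM in AAV-CTRL against 7.21, 9.15 and 24.9 in AAV-VEGF-C. Library 3 was the highest in both groups, without overlap between them. The log2 fold change was -0.85 (SE 0.32, edgeR adjusted p = 0.131). Eng (chr2:32646595-32682669, plus strand), the co-receptor endoglin, spread most, relative to its mean, among the AAV-CTRL libraries, at 20.3, 36.5 and 88.3 TPM, and least among the AAV-VEGF-C libraries, at 13.0, 17.3 and 19.3. The 8 blood endothelial markers took the same order in AAV-CTRL, with sums of 98.7, 257 and 742 TPM, and summed to 53.1, 98.1 and 95.2 in AAV-VEGF-C. The log2 fold change of Eng was -0.41 (SE 0.37, edgeR adjusted p = 0.517), level with the median of expressed genes, and it lost its sign when libraries were scaled on the 2000 most abundant genes (0.06). Eng also overlaps Fpgs on the other strand. The use of strand in counting is not given in the sources used here, so its counts are uncertain. Acvrl1, Bmpr1a, Bmpr2 and Tgfbr3 overlap genes that do not code for protein.

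The inhibitory SMADs were among the genes of lowest level. Smad6 (chr9:63953076-64022059, minus strand), which acts mainly on BMP signals, had 8.38, 5.003 and 14.2 TPM in AAV-CTRL against 1.78, 3.43 and 4.10 in AAV-VEGF-C, and the log2 fold change came to -0.53 (SE 0.36, edgeR adjusted p = 0.371). Smad7 (chr18:75367529-75395935, plus strand), which acts on both branches, had 10.3, 6.51 and 25.8 TPM against 1.65, 3.05 and 8.60. Library 3 of AAV-VEGF-C exceeded library 2 of AAV-CTRL, so that the groups overlapped, and the log2 fold change was -0.66 (SE 0.40, edgeR adjusted p = 0.318).

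Id1 (chr2:152736251-152737410, plus strand), the transcriptional repressor induced by BMP receptors, had the largest edgeR fold change of the 10. It had 42.0, 36.2 and 73.9 TPM in AAV-CTRL against 3.46, 4.98 and 23.3 in AAV-VEGF-C, from 459, 424 and 1060 counts and from 8, 18 and 167 counts. Its TPM was 12.1-, 7.28- and 3.17-fold lower within experiments 1, 2 and 3, and was exceeded by Tgfbr1 in experiment 1 (17.2-fold) and by Eng, Bmpr1a, Bmpr2 and Smad6 in experiment 3 (3.45- to 4.58-fold). The log2 fold change was -1.26 (SE 0.48, edgeR adjusted p = 0.137), and the third AAV-VEGF-C library stood above the other two of its group. Without that library the log2 fold change was -2.23 (edgeR adjusted p = 0.0499). Without the second it was -1.04, when those of Tgfbr1 (-1.54), Bmpr2 (-1.46) and Bmpr1a (-1.085) were larger. Bmpr2 was also larger without AAV-CTRL library 1 (-1.30 against -1.22) and without experiment 1 (-1.13 against -1.06). Tgfbr3 was larger without AAV-VEGF-C library 1 (-1.18 against -1.15), so the first rank of Id1 was not stable.

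At an unadjusted p under 0.05 in edgeR, 5 of the 10 were lower and 0 higher: Acvrl1, Bmpr1a, Bmpr2, Tgfbr3 and Id1. Of expressed genes, 18.7% were lower at that level. The same 5 were lower without overlap in TMM-scaled CPM, a state shared by 33.3% of expressed genes. The log2 fold change was below 0 for 10 of 10, all but Eng and Tgfbr2 also when scaled on the 2000 most abundant genes, and for 76.0% of expressed genes. The median of the 10 was -0.77, beside -0.41 for expressed genes and -0.0037 for all genes tested.

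Because the libraries came from 3 repeats of the experiment, the fold changes were also fitted with the replicate number as a block. In that paired fit 4 of the 10 passed as lower, at log2 fold changes of -1.10 for Bmpr1a (adjusted p = 0.0337), -1.17 for Bmpr2 (0.0375), -0.93 for Tgfbr3 (0.0476) and -1.44 for Id1 (0.0340). With the block, 2.07% of all genes and 4.64% of expressed genes were called lower in edgeR. Acvrl1 came next, at an adjusted p of 0.0609. In the same fit 5 of the 8 fibroblast markers were called lower. None of the 8 lymphatic, 8 blood endothelial, 7 mural cell and 8 leukocyte markers was called lower. DESeq2, the tool of the study, called 3 of the 10 lower without the block (Bmpr1a, Bmpr2 and Tgfbr3), beside 6.23% of expressed genes. With no filter on low counts, edgeR called 5 of the 10 lower, beside 13.5% of expressed genes. Over all alternatives the adjusted p ran from 0.0184 to 0.383 for Bmpr1a, from 0.0155 to 0.345 for Bmpr2, from 0.0345 to 0.528 for Tgfbr3 and from 0.00884 to 0.462 for Id1. The call for Bmpr1a, Bmpr2, Tgfbr3 and Id1 therefore turned on the model.

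**Figure D2:**
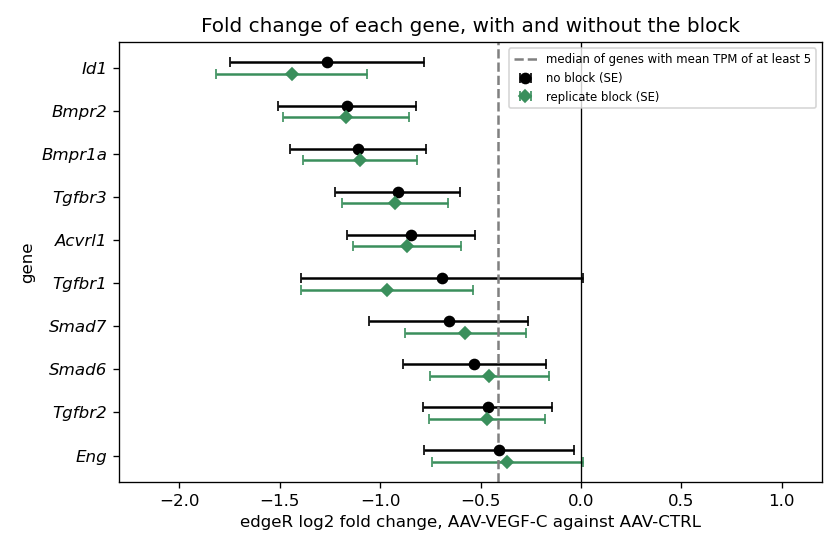
edgeR log2 fold change of each gene with its SE, without a block (black) and with the replicate block (green). All values lie below 0, and without the block those of Id1, Bmpr2, Bmpr1a and Tgfbr3 lie farthest below the dashed median of expressed genes (mean TPM of 5 or more).

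**Figure D3:**
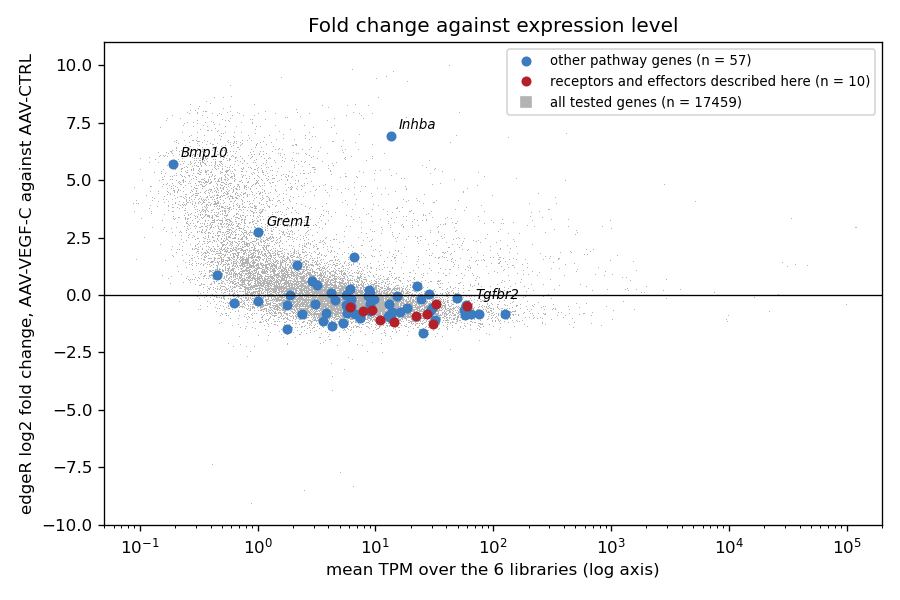
edgeR log2 fold change against mean TPM (log axis) for the 17459 genes tested (grey), the 57 other pathway genes tested (blue) and the 10 receptors and effectors (red). Genes of high TPM sit mostly below 0 and genes of low TPM above it, and the 10 lie among the former.

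The order of the genes by level was compared within each group on TPM, which corrects for length. In AAV-CTRL the means ran from Tgfbr2 (89.9) through Id1 (50.7), Eng (48.4), Acvrl1 (41.6), Tgfbr3 (33.7), Bmpr2 (22.2), Bmpr1a (17.8), Smad7 (14.2) and Tgfbr1 (11.7) to Smad6 (9.18). The ranges of neighbours overlapped at every step but the first. Such overlap does not show equal levels, because 2 genes are paired within a library. Id1 exceeded Eng in only 1 of 3 AAV-CTRL libraries. Acvrl1 still exceeded Tgfbr3, Tgfbr3 exceeded Bmpr2, Bmpr2 exceeded Bmpr1a and Bmpr1a exceeded Smad7 in 3 of 3 AAV-CTRL libraries. In AAV-VEGF-C the order was Tgfbr2 (29.2), Eng (16.5), Acvrl1 (13.7), Tgfbr3 (10.8), Id1 (10.6), Bmpr2 (6.41), Smad7 (4.43), Bmpr1a (4.12), Tgfbr1 (4.001) and Smad6 (3.10), and all neighbouring ranges overlapped. Tgfbr2 exceeded Eng and Bmpr2 exceeded Smad7 in 3 of 3 AAV-VEGF-C libraries. Id1 thus took rank 2 by mean in AAV-CTRL and rank 5 in AAV-VEGF-C.

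Ratios of 2 of these genes within a library do not depend on scaling between libraries. Of the 45 ratios among the 10 genes, 5 did not overlap between groups, whereas 21.5% of all pairs among the 6886 expressed genes listed above 0 in every library did not. Id1 relative to Acvrl1 was 1.24, 1.11 and 1.27 in AAV-CTRL against 0.481, 0.544 and 0.938 in AAV-VEGF-C. Smad7 relative to Id1 was 0.246, 0.180 and 0.350 in AAV-CTRL against 0.478, 0.612 and 0.369 in AAV-VEGF-C. The other 3 ratios had Bmpr1a on top, over Bmpr2, Tgfbr3 and Smad6, and were lower in AAV-VEGF-C. Bmpr1a over Bmpr2 averaged 0.804 ± 0.0914 and 0.639 ± 0.0656 (SD, n = 3). Each of the 5 gave the smallest exact two-sided permutation p of 0.1, before any adjustment over the 45. That value follows from the lack of overlap by which they were picked, so it adds no support.

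Eng relative to Acvrl1 was 0.598, 1.11 and 1.52 in AAV-CTRL against 1.80, 1.90 and 0.776 in AAV-VEGF-C. The groups overlapped for this ratio of co-receptor to receptor. Tgfbr1 relative to Tgfbr2 was 0.0700, 0.151 and 0.157 in AAV-CTRL against 0.0179, 0.194 and 0.138 in AAV-VEGF-C, lowest in experiment 1 of both groups, and the groups overlapped here too. Overlap in 3 libraries against 3 does not show that these ratios were equal.

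**Figure D4:**
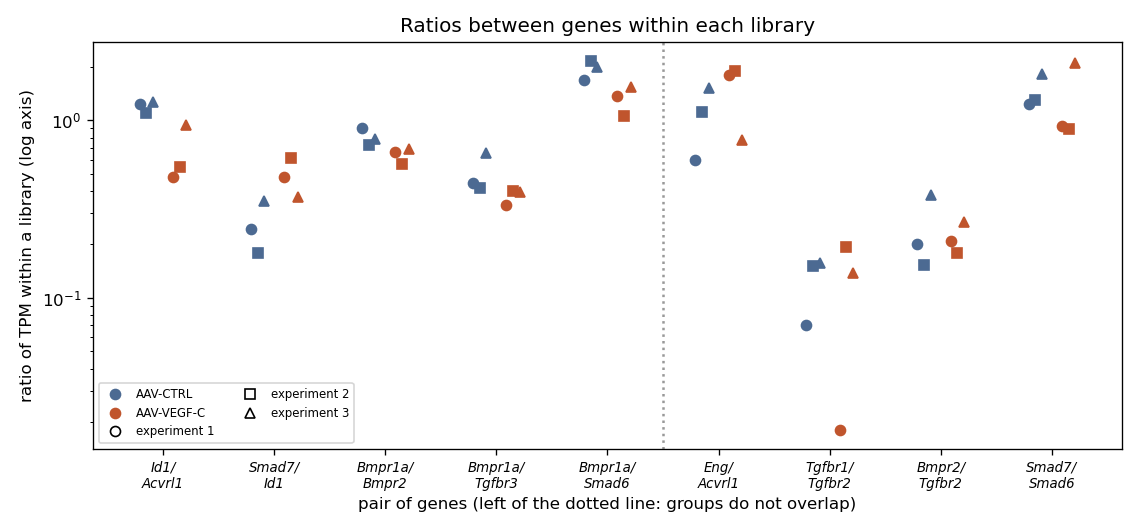
Ratio of the TPM of 2 genes within a library (log axis) for the 5 pairs that did not overlap between groups, left of the dotted line, and 4 pairs that did. Id1/Acvrl1 was at 1.11 to 1.27 in AAV-CTRL and 0.481 to 0.938 in AAV-VEGF-C.

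Around these 10 genes, 62 other genes of the pathways were examined by role, and 57 were tested. Of these, 3 passed as higher in edgeR, beside 10.5% of all genes tested, and 0 as lower, beside 0.659%. The 3 were the ligands Inhba and Bmp10 and the BMP antagonist Grem1. A log2 fold change below 0 was found for 42 of the 57, beside 50.2% of all genes tested and 76.0% of expressed genes. The median of the 57 was -0.42, beside -0.41 for expressed genes. At an unadjusted p under 0.05, 10 were lower, beside 9.11% of all genes tested and 18.7% of expressed genes. At that level 5 were higher, beside 19.0% of all genes tested. The 5 were the same 3 with the ligand Bmp4 (log2 fold change 1.63) and the type II activin receptor Acvr2b (1.31), neither of which passed after adjustment.

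Inhba, the subunit of activin A, had 1.30, 0.365 and 0.974 TPM in AAV-CTRL against 58.6, 17.2 and 2.32 in AAV-VEGF-C. Its log2 fold change was 6.93 (SE 1.46, edgeR adjusted p = 0.0263), and the AAV-VEGF-C libraries differed widely, from 622 counts in the shallowest to 83 in the deepest. Grem1 (gremlin 1) had 0.494, 0.440 and 0.562 TPM against 2.003, 1.05 and 1.55, and the log2 fold change came to 2.72 (SE 0.60, edgeR adjusted p = 0.0284). Bmp10, a ligand of ALK1, rested on 0, 0 and 2 counts against 4, 5 and 10. Its pooled counts over the pooled library totals stood in a ratio of 48.4 between the groups, with a 95% counting interval of 11.7 to 428, and its edgeR adjusted p was 0.0199. All 3 were low genes in AAV-CTRL. The families that endothelium does not express were, like these 3, higher in the AAV-VEGF-C libraries. With 1 library left out, 0 of the 62 passed as higher in edgeR in the fits lacking AAV-CTRL replicate 2, AAV-CTRL replicate 3 or AAV-VEGF-C replicate 2, and 1, Inhba, passed in the fit lacking AAV-VEGF-C replicate 3. Those fits lost calls across all genes: 0 of 18220 and 0 of 18087 passed in either direction in the first pair, although 5071 and 4627 had an unadjusted p under 0.05, 8 of 20250 passed as higher in the next and 320 of 18549 in the last.

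Among the 10 target genes, Ccn2, a matrix protein induced by TGF-beta, had the highest mean in AAV-CTRL, with 134, 107 and 111 TPM in AAV-CTRL against 22.5, 19.0 and 60.3 in AAV-VEGF-C. The relatives of Id1 did not pass. Id2 had 86.5, 76.7 and 142 TPM against 16.9, 25.7 and 38.3, and the log2 fold change came to -0.83 (SE 0.26, edgeR adjusted p = 0.0861). Id3 had 101, 63.9 and 105 TPM against 13.3, 14.8 and 48.7, and the log2 fold change came to -0.89 (SE 0.41, edgeR adjusted p = 0.208). Tgfbi had a log2 fold change of -0.42 and Pmepa1, an inhibitor of TGF-beta signals, -0.71. Of the target genes 0 passed, and 9 of 10 were below 0, beside 50.2% of all genes tested and 76.0% of expressed genes. Their median was -0.83, beside -0.41 for expressed genes. At an unadjusted p under 0.05, 3 were lower, Id2, Tmem100 (-1.37) and Atoh8 (-1.01). Of all genes tested 9.11% were lower at that level, and of expressed genes 18.7%. Tmem100 and Atoh8, known targets of ALK1 signals, are named because of their values.

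The 6 SMAD transducers had log2 fold changes from -0.78 to -0.07, and 0 passed. Smad4, the shared partner, had 21.6, 16.0 and 24.1 TPM in AAV-CTRL against 3.21, 4.44 and 13.5 in AAV-VEGF-C (fold change -0.74 on the log2 scale, edgeR adjusted p = 0.134), and Smad1, which carries BMP signals, had 24.3, 17.3 and 24.4 against 13.2, 7.70 and 4.47 (-0.07, adjusted p = 0.960). Of 8 SMAD regulators 0 passed. The repressors Ski and Skil had log2 fold changes of -0.19 and -0.56, the phosphatase Ppm1a -0.58, and Fkbp1a, which holds type I receptors inactive, 0.04. Neo1, a receptor for repulsive guidance molecules that binds BMP co-receptors, had 51.1, 27.9 and 75.4 TPM against 6.10, 10.4 and 21.3 (-1.11, edgeR adjusted p = 0.101).

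Among ligands, Tgfb1 had 9.56, 37.1 and 35.2 TPM in AAV-CTRL against 5.28, 27.3 and 21.0 in AAV-VEGF-C, lowest in experiment 1 of both groups as were Tgfbr1 and the leukocyte markers. Its log2 fold change was 0.41, and that of Tgfb3 was -0.73. Of the antagonists, Chrdl1 and Twsg1 had log2 fold changes of -1.64 and -0.99 (edgeR adjusted p = 0.0793 and 0.0981), and neither passed. With the replicate block 3 of the 57 passed as lower in edgeR, beside 2.07% of all genes tested and 4.64% of expressed genes. They were Twsg1 (adjusted p = 0.0478), Bambi (0.0432), a decoy receptor, and Itgav (0.0484), an integrin subunit that activates latent TGF-beta. The latent TGF-beta binding proteins Ltbp3 and Ltbp4 had -0.66 and -0.15, and thrombospondin 1 (Thbs1), which activates latent TGF-beta, had the highest mean TPM of the 62 in both groups, at 247, 148 and 202 TPM against 43.2, 35.5 and 84.0, with -0.84 (edgeR adjusted p = 0.310).

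**Figure D5:**
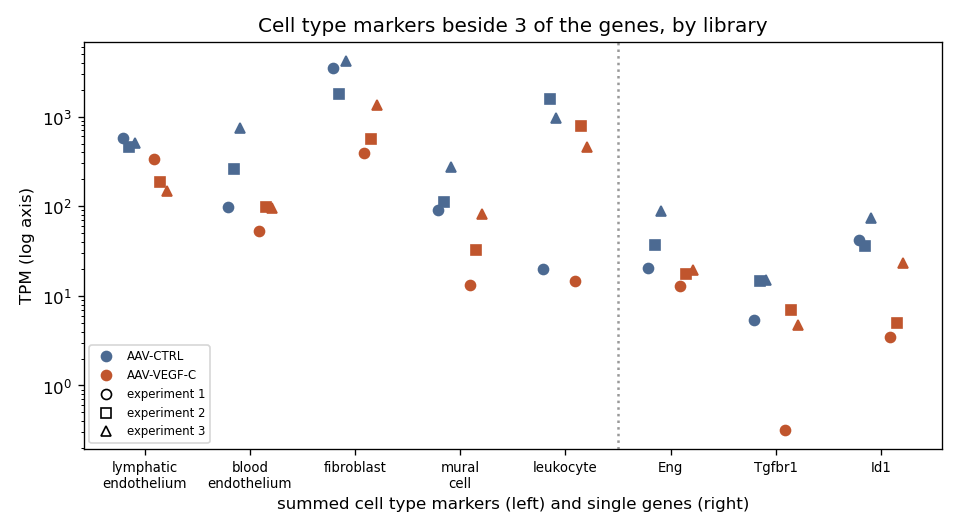
Summed TPM (log axis) of marker genes for 5 cell types, left of the dotted line, and the TPM of Eng, Tgfbr1 and Id1, in each library. Leukocyte markers and Tgfbr1 were lowest in experiment 1 of both groups. AAV-VEGF-C library 1 was also the lowest of its group for Eng and Id1. Blood endothelial markers and Eng were highest in AAV-CTRL library 3, as were fibroblast markers, mural cell markers and Id1.

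Profiles over the 6 libraries were compared as the root mean square difference of centred log2(TPM + 1) values, a description in which all genes share library depth. Of 7540 other genes, those nearest to Tgfbr2 were Vamp4 (0.0731), Fam107b (0.0841) and Acbd5 (0.0906), and those nearest to Id1 were S100a11 (0.0968), Selenom (0.160) and Sulf1 (0.187). Within the 10 genes, the nearest to Tgfbr2 was Tgfbr3 (0.341), and the nearest to Id1 was Acvrl1 (0.491).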

How the data were processed

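Dural LECs were sorted in 3 experiments per group, and stranded total RNA libraries were made from low input. Per gene, the authors deposited estimated counts with no scaling across libraries, and TPM values, scaled for gene length and library total. The submitters' processing notes name FastQC, Trimmomatic, DRAGEN, Picard and mm10. Their versions and roles, and the use of strand or molecular identifiers in counting, are not given in the sources used here. Of the gene identifiers, 98.1% equalled GENCODE M21 on GRCm38, from which positions were taken. Promoter windows came from RefSeq.

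Groups came from the labels. Counts were rounded, filtered with filterByExpr, scaled by TMM and tested across all genes by edgeR's quasi-likelihood test (version 4.0.16, R 4.3.3) with Benjamini-Hochberg adjustment at 0.05, after a check on simulated counts. SEs were derived from the test. DESeq2 (version 1.42.0) and limma (version 3.58.1, on log2 TPM) were alternatives. Single values were compared by two-sided exact permutation (SciPy 1.17.1). Libraries of 1 group differed beyond sampling noise. Each library is a separate pool of animals, so p-values measure the spread between pools. Same-numbered libraries share an experiment per the labels, and the block rests on those labels. Their deviations correlated at 0.37, 0.28 and 0.15. AAV-CTRL library 3 correlated more with AAV-VEGF-C library 2 (0.22), so the correlations do not single out the third pair. Intervals cover counting error only.

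All 10 genes were named. Other pathway genes were named where adjusted p passed, where a group mean reached 20 TPM or where all counts were 0 (none), 22 by this rule, and 3 neighbours were named for Tgfbr2 and Id1. Acvr2b, Bmp4, Bambi, Itgav, Tmem100 and Atoh8 were named after their values were seen. The genes and lists were chosen with earlier results of these data known. The ratios, the medians relative to other genes and the fit without experiment 1 were added after seeing the data.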

Additional observations from a re-analysis of the deposited data

How the results depend on the processing

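Depth limits these genes most in AAV-VEGF-C, where Tgfbr1 had 1 count and Id1 8 counts in the shallowest library, and group and depth cannot be told apart. In the 10 genes 0 were called higher under every alternative run. The number called lower, 0 in edgeR without a block, was 5 with no filter, 3 with DESeq2, 1 with limma on log2(TPM + 1), 4 with the replicate block, 2 at an adjusted p under 0.1, and 0 to 1 when 1 library was left out (1, Id1, without AAV-VEGF-C replicate 3). It was 0 when experiment 1 was left out of both groups, an alternative chosen after seeing the data. Genes not overlapping between groups numbered 8 in TPM, beside 61.4% of expressed genes, and 5 in TMM-scaled CPM, beside 33.3%. With 1 library left out they numbered 8 to 9 in TPM. Fewer libraries separate more easily and no share of expressed genes was taken for this, so it does not show that the separation is stable. Of the other pathway genes, 3 were called higher, 4 with no filter and 4 with scaling on the 2000 most abundant genes (Acvr2b added). The number was 1 with limma on log2(TPM + 1), 1 on log2(TPM + 0.1), and 0 to 3 with 1 library left out. It was 0 when only genes averaging 5 TPM or more were tested. That fit held 39 of the other pathway genes and left out Bmp10 (mean 0.191 TPM) and Grem1 (1.02 TPM). Of the 3, only Inhba was tested there (edgeR adjusted p = 0.291). The number called lower was 0, and was 11 with no filter, 5 with DESeq2, 1 and 1 with limma, 3 with the replicate block and 5 at an adjusted p under 0.1. The share of all genes called lower also moved, from 0.659% to 2.64% with no filter, 1.72% with DESeq2, 2.49% and 0.934% with limma, 2.07% with the block and 3.31% at 0.1. The share called higher moved to 21.1% with no filter and 0.119% among genes averaging 5 TPM or more. Among expressed genes, to which all 10 belong, the share called lower was larger. It was 1.45% in edgeR without a block, 13.5% with no filter, 6.23% with DESeq2, 5.11% and 1.88% with limma, 4.64% with the block and 7.13% at 0.1. Without AAV-CTRL replicate 2 or 3, 0 of all genes passed edgeR in either direction (5071 and 4627 at an unadjusted p under 0.05), so these fits say nothing of single calls. Scaling on the 2000 most abundant genes moved the median of all genes by 0.46 and turned the log2 fold changes of Eng to 0.060 and of Tgfbr2 to 0.0084. Relative to expressed genes (averaging 5 TPM or more), the median of the 10 was -0.36, from -0.54 to -0.23 with 1 library left out. Among 170 values of single genes under the alternatives, 2 changed sign, 14 passed an adjusted p of 0.05 that the reported value did not, and 2 more passed at 0.1. The cause of these changes was not tested.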
